A study of Homo sapiens and Mus musculus with 81 samples.

Results

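APOB-Hs2 is 1 of 7 small interfering RNAs (siRNAs) whose effects on messenger RNA were recorded in this array study, and the 8 arrays described here are 4 of HUH7 cells that received it and 4 of HUH7 cells that were mock transfected. They were chosen by their labels, from 81 arrays in all. HUH7 is a human hepatoma line that keeps many functions of hepatocytes. Cells in 6-well plates received APOB-Hs2 at 10 nM in Lipofectamine RNAiMAX, a lipid that carries RNA across the plasma membrane, or were mock transfected, and were collected 6, 12, 24 or 48 h later. The labels do not state what the mock mixture held. There was 1 array per treatment and time, so each difference was taken within a time and the 4 times stood in for replicates. Nothing in the labels says that they came from separate cultures. The p-values measure only the spread of all HUH7 arrays, those of the other siRNAs included, around a model of treatment and time. With 1 array per treatment and time, that spread includes any change of a treatment's difference over time.

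An siRNA is loaded into an Argonaute protein, which cuts a transcript that pairs with the whole guide strand. A loaded guide can also act in the manner of a microRNA on transcripts that pair only with its 5′ end, the seed, mostly through their 3′ untranslated regions, and such off-target transcripts fall more modestly. APOB, the named target, encodes the structural protein on which the liver assembles very low density lipoprotein. The sequence of APOB-Hs2 was not used here, so no transcript was matched to it.

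Values are intensities per probe set, on the linear scale, and differences are log2 intensity with APOB-Hs2 minus log2 intensity with mock. Each was tested with limma over 17836 named genes in a model of treatment and time fitted to all 32 HUH7 arrays, which held 8 treatments, and a gene was called at a Benjamini-Hochberg adjusted p under 0.05. Median intensities of the HUH7 arrays ran from 31.75 to 34.99. The 13 hepatocyte markers on the array all stood above the array median in mock cells, and their summed intensity was 107610 to 116810 with APOB-Hs2 and 109690 to 117110 with mock. Of markers of other lineages, 6 of 10 leukocyte, 3 of 9 endothelial and 4 of 10 fibroblast and stellate cell genes also stood above the array median in mock cells. Among the defining ones, the mean log2 intensity of PTPRC, the common leukocyte antigen, was 4.31 with APOB-Hs2 and 4.25 with mock, and that of the endothelial cadherin CDH5 was 3.01 with APOB-Hs2 and 3.08 with mock. Of these markers limma called 0 in each list, with 0 at an unadjusted p under 0.05. The endothelial markers summed to 217 to 283.6 with APOB-Hs2 and 252 to 281.7 with mock, and the fibroblast and stellate cell markers to 2976 to 3842 with APOB-Hs2 and 2866 to 3449 with mock. The leukocyte markers summed to 4990 to 5624 with APOB-Hs2 and 5257 to 6749 with mock, most of it from lysozyme (LYZ), at a mean log2 intensity of 12.23 with APOB-Hs2 and 12.36 with mock.

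The target was read first. APOB stood at 4676, 1074, 1008 and 1110.1 intensity units at 6, 12, 24 and 48 h with APOB-Hs2, and at 10149.6, 8631, 8143 and 8219 with mock. The groups did not overlap, and APOB had reached its low level by 12 h. The remaining signal was 46.1%, 12.4%, 12.4% and 13.5% of mock at the 4 times. The fitted difference was -2.51 (SE 0.261, adjusted p = 7.57e-06). Because the arrays read RNA pooled from a whole well, fewer cells that took up the siRNA and a shallower loss per cell cannot be told apart. In a fit of the 8 arrays alone, without the other siRNAs' share in the estimate of spread, the same difference had an adjusted p of 0.109.

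**Figure D1:**
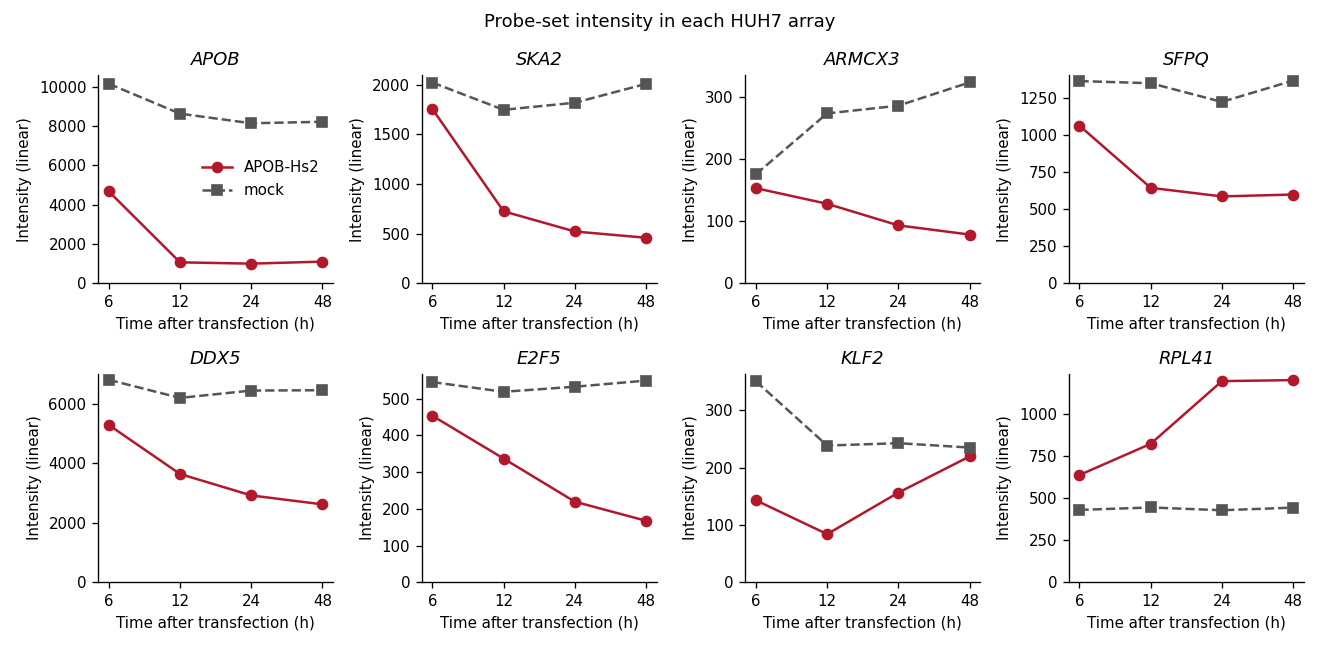
Linear intensity of 8 transcripts against time after transfection (h), with 1 point per array: red circles are APOB-Hs2 and grey squares are mock. APOB reached its low level by 12 h, SKA2, ARMCX3, SFPQ, DDX5 and E2F5 were lowest at 24 or 48 h, KLF2 approached mock at 48 h, and RPL41 stood above mock at every time.

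The next question was what else the siRNA moved. Of the 17836 genes, 214 fell (1.2%) and 210 rose (1.18%), with 2553 at an unadjusted p under 0.05. Falls were larger than rises: 5 of the genes that fell differed by more than 1 on the log2 scale and 80 by more than 0.5, against 2 and 25 of those that rose. The genes that fell were also brighter in mock cells, with a median log2 intensity of 9.30 against 7.91 for those that rose and 6.65 for all genes. Since this contrast chose both groups, their sizes by time are a description only: the 214 stood at a median of -0.14, -0.37, -0.54 and -0.67 at 6, 12, 24 and 48 h, and the 210 at 0.22, 0.34, 0.37 and 0.36. The falls therefore deepened to 48 h in the medians, while the rises were near their final size by 12 h. Over all genes the median difference was 0.01, 0.01, 0.01 and 0.02, and its SD widened over the 4 times, at 0.18, 0.194, 0.203 and 0.257. At 48 h 102 genes differed by more than 1 downward and 11 upward, against 2 and 1 at 6 h.

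These counts depended on the arrays in the fit. With the 24 h arrays left out limma called 16 genes lower and 6 higher. The counts were 76 and 44 with 12 h left out, 63 and 55 with 48 h left out, and 326 and 240 with 6 h left out. Single arrays that moved a count by more than 1.5 times were APOB-Hs2 at 48 h (122 lower and 122 higher without it), at 24 h (113 and 89), at 12 h (169 and 98) and at 6 h (325 and 260), and mock at 48 h (116 and 90), 24 h (114 and 93) and 12 h (128 and 114). The direction of the called genes was kept throughout these fits, in all 424. In the fit of the 8 arrays alone 1 gene was called lower and 0 higher, with 2491 at an unadjusted p under 0.05, so every other call rests on the spread estimated with the other siRNAs. The 1 gene was DDIT4, which encodes an inhibitor of mTOR signalling and is named here after its values were seen. DDIT4 had 80.3, 81.5, 72.8 and 72.7 intensity units at 6, 12, 24 and 48 h with APOB-Hs2, against 153, 145, 132 and 124 with mock. That steady offset of -0.85 carried an adjusted p of 0.0254 in the 8 arrays.

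The largest fall after that of APOB was in a gene of the mitotic machinery. SKA2, a subunit of the SKA complex that couples kinetochores to microtubules, had 1755, 726, 523 and 459.7 intensity units with APOB-Hs2 and 2020.3, 1746, 1817 and 2007 with mock. The 6 h value with APOB-Hs2 lay just inside the mock range, and the 3 later ones lay far below it. SKA2 fell by 1.35 (SE 0.194, adjusted p = 0.000228). The other SKA subunits did not pass the test, SKA1 at 0.10 (adjusted p = 0.406) and SKA3 at 0.02 (0.958). NSL1, a subunit of the MIS12 complex at the inner face of the kinetochore, had 597, 403, 290.3 and 234 units with APOB-Hs2 and 648, 668, 643 and 641 with mock. Every APOB-Hs2 array was below every mock array, by little at 6 h and by much at 48 h, and NSL1 fell by 0.86 (SE 0.151, adjusted p = 0.00182). Of 28 genes in the list of SKA and NDC80 kinetochore complexes, SKA2 and NSL1 were the 2 that fell, 0 rose, and the median was 0.06 with 22 on the positive side, against 0.002 over all genes. Among all genes 1.2% fell and 1.18% rose. The calls for SKA2 and NSL1 were lost without 24 h. The gene lists here and below were chosen with earlier results of these data known, so the place of a called gene in its list is a description only.

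Among RNA-binding proteins, SFPQ, a splicing factor and core protein of paraspeckles, had 1061, 643, 585 and 598 intensity units with APOB-Hs2 and 1361, 1346, 1221 and 1364 with mock. The groups did not overlap, and as with APOB the difference was nearly full by 12 h. SFPQ fell by 0.92 (SE 0.101, adjusted p = 7.57e-06), the smallest adjusted p of the contrast, shared with APOB. Its partners in the same protein family were called in neither direction against mock, NONO at 0.03 (adjusted p = 0.849) and PSPC1 at 0.27 (0.0729). Of 12 paraspeckle and related genes SFPQ alone was called, and the median was 0.02. DDX5, a DEAD-box RNA helicase, was among the brightest transcripts to fall, with 5289, 3641, 2921 and 2619.7 units with APOB-Hs2 and 6808, 6200.5, 6448 and 6459 with mock. It lay below the mock range at every time and fell by 0.89 (SE 0.114, adjusted p = 0.000105). The splicing regulator MBNL2 fell by 0.89 (SE 0.115, adjusted p = 0.000106), with 933 units at 6 h and 346 at 48 h with APOB-Hs2 against 988 to 1249.6 over the mock arrays. For MBNL2, 2 of its 3 other probe sets stood at -0.07 and 0.03, and the third at -0.72. ANGEL2, of the CCR4 nuclease family, fell by 0.90 (SE 0.145, adjusted p = 0.000887), with 343, 226, 183 and 128 units with APOB-Hs2 and 363 to 414 with mock. Of 28 other splicing factors, 1 fell, SRSF6 (-0.29), and 1 rose, SNRNP70 (0.19), with a median of -0.03. The shares over all genes were 1.2% lower and 1.18% higher. SNRNP70 lost the call in 13 of 20 alternative fits and SRSF6 in 8.

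PRKRA, which encodes the double-stranded RNA-binding partner of Dicer known as PACT, was the 1 of 14 genes of small RNA machinery that was called. Among all genes 1.2% fell and 1.18% rose. PRKRA had 715, 421, 361 and 310.3 intensity units with APOB-Hs2 and 731, 743, 753 and 829.5 with mock. At 6 h the arrays were nearly level, and from 12 h the treated ones were well below. PRKRA fell by 0.83 (SE 0.139, adjusted p = 0.0012), a call lost without 24 h or without 48 h. TNRC6B, the Argonaute-binding scaffold of the silencing complex, had 241, 209.9, 206 and 133 units with APOB-Hs2 and 278, 269, 276 and 258 with mock. All 4 treated arrays were lower, yet its difference of -0.48 missed the threshold (SE 0.135, adjusted p = 0.0522). The Argonaute genes AGO1 to AGO4 stood at 0.07 to 0.13 (adjusted p 0.559 to 0.835), TNRC6A at 0.10, TNRC6C at 0.09, DICER1 at -0.06 and the pre-microRNA exporter gene XPO5 at -0.03. Of 21 genes of mRNA decay and deadenylation limma called 0, with 3 at an unadjusted p under 0.05.

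Several of the leading falls were in genes of membranes and organelles. ARMCX3, a protein of the outer mitochondrial membrane with a part in mitochondrial transport, had 154, 129, 93.7 and 78.9 intensity units with APOB-Hs2 and 176, 274, 287 and 324 with mock. The treated values declined while those in mock climbed, and ARMCX3 fell by 1.24 (SE 0.199, adjusted p = 0.000832). It was the 1 called among 9 ARMCX and related genes, which otherwise ran from -0.03 to 0.26. Of 15 genes of mitochondrial dynamics and transport limma called 0, with 1 at an unadjusted p under 0.05. The shares over all genes were 1.2% lower and 1.18% higher. LRRC8B, a subunit of the volume-regulated anion channel, had 143, 69.2, 54.4 and 49.8 units with APOB-Hs2 and 165, 138, 178 and 176 with mock. Its 6 h value touched the mock range and the later ones did not, and LRRC8B fell by 1.18 (SE 0.193, adjusted p = 0.000913). The obligatory channel subunit LRRC8A stood at -0.09 and the other 3 subunits at -0.00 to 0.15, none called. VPS13C, a lipid transfer protein at membrane contact sites, fell by 0.96 (SE 0.127, adjusted p = 0.000106), and PAQR3, a Golgi protein that tethers RAF kinases, by 0.94 (SE 0.183, adjusted p = 0.00468). The calls for ARMCX3 and LRRC8B were lost without 24 h, and that for PAQR3 without 24 h or 48 h.

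SPP1, which encodes the secreted matrix protein osteopontin, had 602, 427, 323 and 188 intensity units with APOB-Hs2 and 626, 695, 887 and 810.4 with mock. The arrays were almost equal at 6 h, and the gap widened at each later time. The treated values declined throughout, while mock was highest at 24 h. SPP1 fell by 1.08 (SE 0.23, adjusted p = 0.00889), and the call was lost without 12, 24 or 48 h and without either 48 h array. Also past the test were the peroxiredoxin-like gene PRXL2C (-0.98), FAM217B (-0.97) and the transcription factor genes E2F5 (-0.97), ELK3 (-0.96) and FOXQ1 (-0.97). The ELK3 call was lost in 8 of 20 alternative fits. E2F5, which encodes a repressor-type E2F, had 453, 337, 219 and 167 units with APOB-Hs2 and 545, 518, 532 and 549 with mock, a fall that grew at each time. FOXQ1 behaved differently, with 269, 195, 258 and 323 units with APOB-Hs2 and 461, 433, 565 and 572 with mock, near its full difference from the first time onward (adjusted p = 0.000113).

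KLF2, a Krüppel-like transcription factor gene, was lowest relative to mock at the early times. It had 143, 84, 156 and 219 intensity units with APOB-Hs2 and 350.5, 238, 242 and 235 with mock. The difference was deepest at 6 and 12 h and had nearly closed by 48 h, but its slope over time missed the threshold (0.45, adjusted p = 0.117). KLF2 fell by 0.88 over the 4 times (SE 0.177, adjusted p = 0.00624). HEY1, a target of Notch signalling, fell by 0.82 (SE 0.146, adjusted p = 0.00217), with 74.1 units with APOB-Hs2 against 239 with mock at 48 h, where the mock value was more than its level at any earlier time. The call for KLF2 was lost without 6, 12 or 24 h, and that for HEY1 without 24 or 48 h.

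**Figure D2:**
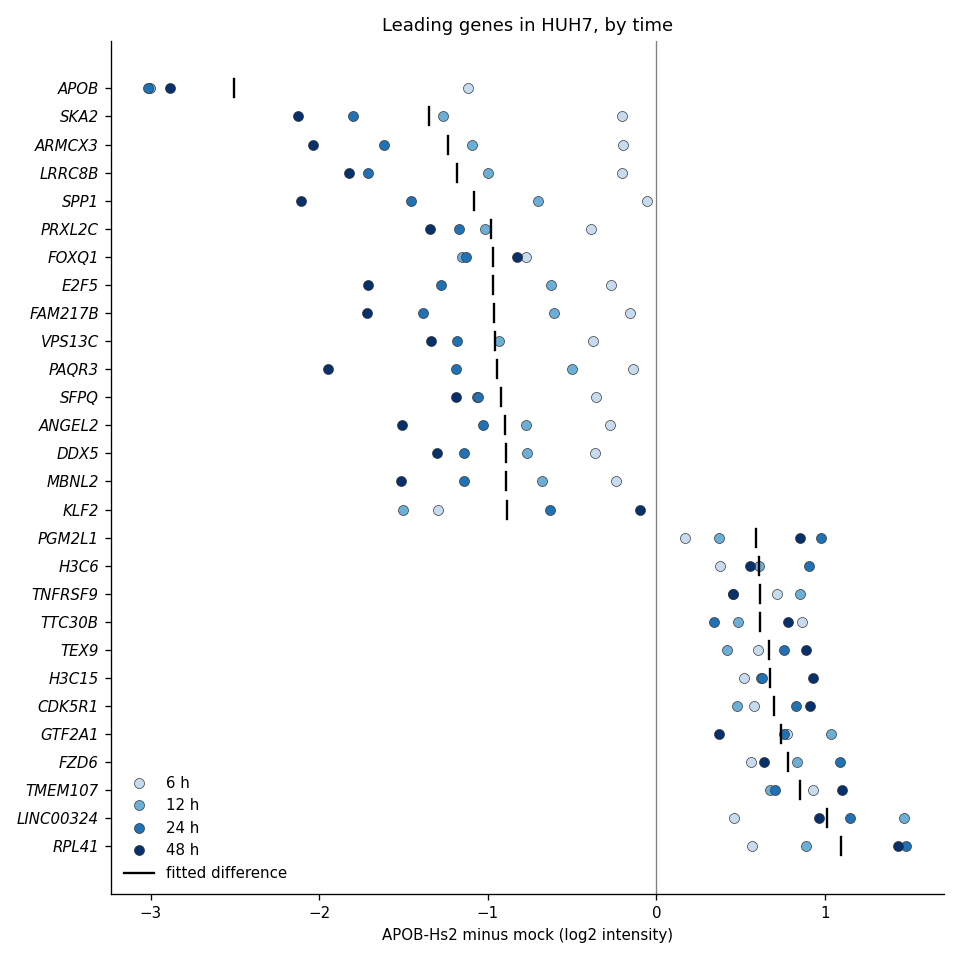
Log2 difference of APOB-Hs2 minus mock for the 16 called genes that fell most and the 12 that rose most in HUH7, each of them on 1 side of mock at all 4 times. Each dot is 1 time, from pale (6 h) to dark (48 h), and the black bar is the fitted difference; dots spread from right to left with time for most falling genes, while KLF2 has its lowest values at 6 and 12 h and the rising genes show no common order.

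Among the genes that rose, RPL41 led. It encodes a very short ribosomal protein, has near-identical copies in the genome that its probes may also read, and had 636, 821, 1192 and 1198 intensity units with APOB-Hs2 and 429, 443, 427 and 442 with mock. The groups did not overlap, and the mock arrays were almost flat. RPL41 rose by 1.09 (SE 0.15, adjusted p = 0.000113). Of 40 ribosomal protein genes of the large subunit 1 rose, RPL41, and 1 fell, RPL13A (-0.20), with 33 on the negative side and a median of -0.03. Of 26 of the small subunit 0 rose and 1 fell, FAU (-0.23), with a median of -0.05. Among all genes 1.18% rose and 1.2% fell. LINC00324, a long noncoding RNA, had 106, 216, 163 and 129 units with APOB-Hs2 and 76.8, 77.8, 73.3 and 65.8 with mock, highest at 12 h, and rose by 1.01 (SE 0.175, adjusted p = 0.00166). GTF2A1, the large subunit gene of the general transcription factor TFIIA, had 818, 931, 876 and 681 units with APOB-Hs2 and 477, 454, 518 and 525 with mock. Its excess was present at 6 h and smallest at 48 h, for a rise of 0.74 (SE 0.0978, adjusted p = 0.000106).

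The remaining leading rises were dimmer transcripts. TMEM107, of the ciliary transition zone, rose by 0.85 (adjusted p = 0.0103), with 81.0 to 104 intensity units with APOB-Hs2 and 42.4 to 55.1 with mock. FZD6, a Wnt receptor gene, rose by 0.78 (adjusted p = 0.000913), with 159, 115, 154 and 132 units with APOB-Hs2 and 108, 64.8, 72.5 and 85.0 with mock. CDK5R1, the activator of CDK5, rose by 0.70 (adjusted p = 0.00503), and the intraflagellar transport gene TTC30B, which has a near-identical paralogue, by 0.62 (0.00503). The histone H3 genes H3C15 (0.67) and H3C6 (0.61) also passed, with near-identical copies elsewhere in the genome. Over the 78 histone genes measured, a group looked at after these values were seen, 2 rose, 0 fell and 51 were on the positive side. Of all 17836 genes, 1.18% rose and 9070 were on that side. TEX9 (0.67), TNFRSF9 (0.62) and PGM2L1 (0.59) passed with adjusted p of 0.0417, 0.0171 and 0.0417. The calls for TEX9, H3C6, H3C15, TNFRSF9 and PGM2L1 were each lost in 9 or more of the alternative fits, and a second probe set of TEX9, dimmer than its first, stood at -0.16.

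Lists of genes by function gave the wider picture. Over all 17836 genes 1.2% fell and 1.18% rose, with 8766 on the negative side and 9070 on the positive side. Of 22 genes of fatty acid and triglyceride synthesis 5 fell and 0 rose, with 19 on the negative side and a median of -0.11 against 0.002 over all genes. GPAM, the enzyme of the first step of glycerolipid synthesis, had 537, 268, 317 and 605 intensity units with APOB-Hs2 and 647, 456, 529.7 and 892 with mock, lower at each time within a shared course, and fell by 0.59 (SE 0.0951, adjusted p = 0.000911). The others were the fatty acid activating enzyme ACSL1 (-0.40), ATP citrate lyase ACLY (-0.34), fatty acid synthase FASN (-0.33) and the lipid droplet coat gene PLIN2 (-0.28). In cholesterol synthesis 1 of 20 genes fell, HMGCS1, the synthase of the step before HMG-CoA reductase (-0.27, adjusted p = 0.0417). HMGCS1 lost the call in 13 of 20 alternative fits, ACLY in 8 and FASN in 7. The median over that list was 0.02, 0.05, -0.10 and -0.30 at 6, 12, 24 and 48 h. Apart from APOB, 0 of the other 23 genes of lipoproteins and their assembly were called, and limma called 0 of 18 genes of fatty acid oxidation, with 1 at an unadjusted p under 0.05.

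In the cell cycle and replication list, 6 of 34 genes rose and 1 fell, with a median of 0.09 and 27 on the positive side. Over all genes 1.18% rose and 1.2% fell, and 9070 of 17836 were on the positive side. The 6 that rose are known as regulators of entry into S phase, but so is cyclin E2, whose gene CCNE2 had the lowest value of the list and was not called (-0.52, adjusted p = 0.128). CCNE1, the gene of cyclin E1, had 348, 392, 542 and 595 intensity units with APOB-Hs2 and 329, 287, 344 and 337 with mock, nearly equal at 6 h and apart after it, and rose by 0.50 (SE 0.0928, adjusted p = 0.00322). Its kinase CDK2 rose by 0.31 and its phosphatase CDC25A by 0.27, and of the activating E2F genes E2F3 rose by 0.42, E2F2 by 0.31 and E2F1 by 0.25. The mitotic kinase gene CDK1 fell by 0.30 (adjusted p = 0.0208). CCNE1 was called in every fit except 3, those without 24 h, without the time factor and with the 8 arrays alone, whereas E2F3, E2F2 and CDK2 each lost the call in 11 or 12 of 20.

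Of 22 NRF2 redox and xenobiotic genes 6 fell and 0 rose, with a median of -0.12, the most falls of any of the lists, where 1.2% of all genes fell. The 6 were heme oxygenase 1 HMOX1 (-0.52, adjusted p = 0.00692), the aldo-keto reductase AKR1B10 (-0.50), the drug-metabolising cytochrome CYP1A1 (-0.40), sulfiredoxin SRXN1 (-0.36), the glutathione synthesis enzyme GCLC (-0.31) and the ferritin heavy chain FTH1 (-0.26). Of the 22, 21 stood above the array median in mock cells. With the dimmer 0.5 of all genes left out, 304 of 8918 fell. Against the mean of the other 6 siRNAs, a contrast given below, 2 of the 22 were lower and 1 was higher. Of 25 genes of the unfolded protein and integrated stress response 3 fell, asparagine synthetase ASNS (-0.48, adjusted p = 0.00706), TRIB3 (-0.34) and the transcription factor gene ATF4 (-0.22), and 1 rose, ATF3 (0.40, adjusted p = 0.0334), with a median of -0.13. ASNS and TRIB3 are known targets of ATF4. ATF3 lost its call in 14 of 20 alternative fits, CYP1A1 in 12, SRXN1 in 11, AKR1B10 in 10 and ATF4 in 8. Of 24 p53 targets 2 fell, ZMAT3 (-0.58) and CCNG1 (-0.26), and 1 rose, the antiproliferative gene BTG2 (0.57, adjusted p = 0.00138), with a median of 0.09. BTG2 had 259, 317, 298 and 272 units with APOB-Hs2 and 226, 223, 183 and 146 with mock, a gap that widened mainly because the mock arrays declined. Of 32 genes of the interferon response and RNA sensors limma called 0, with 5 at an unadjusted p under 0.05 and a median of -0.02, and of 20 acute phase genes it called 0, with 3 unadjusted.

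Other lists held a few calls each, where 1.2% of all genes fell and 1.18% rose. In the BCL2 family 2 of 17 rose, the pro-apoptotic BCL2L11 (0.42) and BCL2L12 (0.22). The BCL2L11 call was lost in 7 of 20 alternative fits, among them the mean of its probe sets. In a list of 19 genes headed liver-enriched transcription factors, ONECUT1 (0.40) and NR6A1 (0.43) rose and CEBPA (-0.33) and CEBPB (-0.34) fell. Whether each member, NR6A1 among them, is enriched in liver was not checked. CEBPA lost the call in 13 of 20 alternative fits, ONECUT1 in 10 and NR6A1 in 9. The ERK phosphatase gene DUSP6, an immediate early gene, fell by 0.52 at an adjusted p of 0.00217, in a list of 28 with 3 falls and 2 rises. Of 18 targets of miR-122, the most abundant microRNA of hepatocytes, 1 fell (CCNG1), and of 21 let-7 targets 2 rose (NR6A1 and CDC25A), with medians of 0.001 and 0.01. These lists share members, so a gene can count in more than 1.

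**Figure D3:**
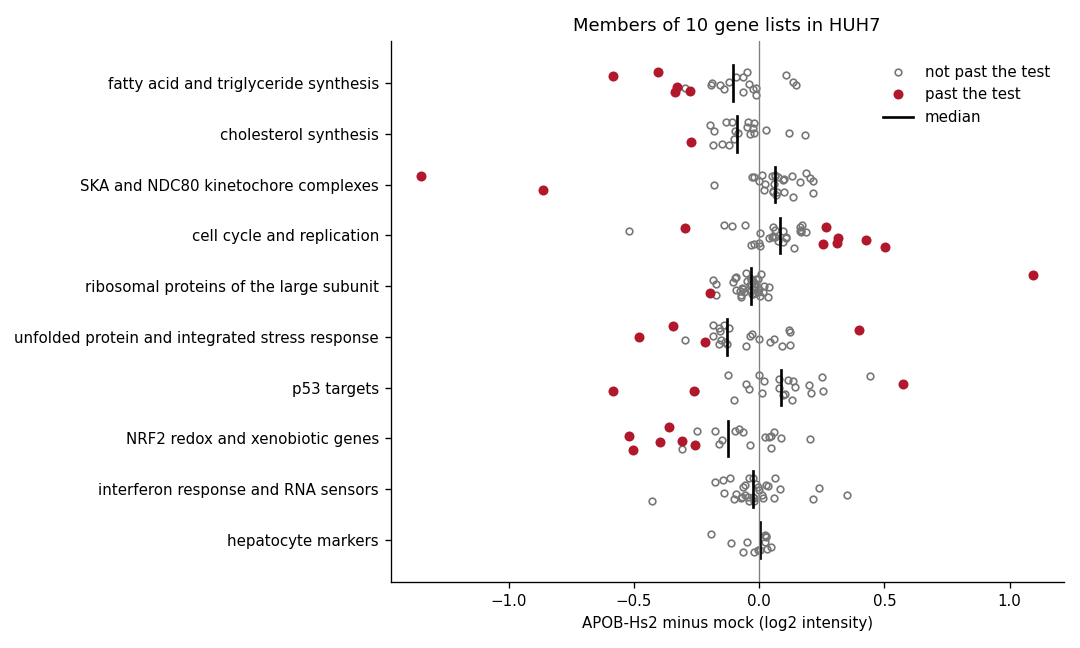
Log2 difference of APOB-Hs2 minus mock in HUH7 for the members of 10 gene lists, 1 circle per gene, with filled red circles past the test and a black bar at each median. Fatty acid and triglyceride synthesis, with 5 of 22 genes past the test, and the NRF2 list, with 6 of 22, have called genes below 0 only, while in the kinetochore list 2 genes stand far from a median of 0.06.

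To set APOB-Hs2 beside other siRNAs, its arrays were compared with the mean of the other 6 in HUH7. These were 3 of the same APOB-Hs series (numbers 1, 3 and 4), Apob-Mm1 and Apob-Mm2, and 1 named for RAD18. This contrast uses no mock array but the same APOB-Hs2 arrays, so its calls and those against mock are not independent. With all of the 6 but the RAD18 siRNA (0.01), APOB was also below mock, at -2.31 to -0.81. The contrast therefore cannot separate what transfection shares from what loss of APOB shares. It called 290 genes lower (1.63%) and 166 higher (0.931%). SKA2 differed by -1.35 from the other siRNAs (adjusted p = 2.33e-06), and with those siRNAs it stood at -0.11 to 0.11 from mock. ARMCX3 differed by -1.16 (2.48e-05), PRXL2C by -1.02 (1.03e-06), E2F5 by -1.0 (8.55e-06), VPS13C by -1.04 (3.18e-07), ELK3 by -1.04 (0.000255), SFPQ by -0.92 (6.68e-08), PRKRA by -0.90 (7.47e-06) and NSL1 by -0.86 (3.9e-05). For each of these 8 the other siRNAs stood between -0.29 and 0.20 from mock, far from the APOB-Hs2 value. TNRC6B, which missed the threshold against mock, was lower than the mean of the other siRNAs (-0.45, adjusted p = 0.0135), among which it ranged from -0.69 with APOB-Hs3 to 0.56 with Apob-Mm2.

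Some of the genes that fell were also low with 1 other siRNA, whose own difference from mock is given here without a test. LRRC8B stood at -0.97 from mock with APOB-Hs3 and at -0.20 to 0.17 with the other 5, against -1.18 with APOB-Hs2. HMOX1, at -0.52 with APOB-Hs2, stood at -1.66 with APOB-Hs3 and at -0.32 to 0.06 with the other 5, so that its difference from the mean of the 6, which missed the test (-0.10, adjusted p = 0.688), depends on that 1 siRNA. SPP1 stood at -1.0 with Apob-Mm2, DDX5 at -0.47 with APOB-Hs3 and MBNL2 at -0.66 with the RAD18 siRNA. APOB itself was lower than the mean of the other siRNAs (-1.16, adjusted p = 0.000846), with APOB-Hs1 at -2.04, APOB-Hs3 at -1.69 and APOB-Hs4 at -2.31 from mock. Apob-Mm1 stood at -1.27 and Apob-Mm2 at -0.81, and the RAD18 siRNA at 0.01.

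Another set of genes lay on the same side of mock with all 7 siRNAs. KLF2 was at -0.83 to -0.36 with the other 6, and APOB-Hs2 did not differ from their mean past the test (-0.20, adjusted p = 0.561). HEY1, at -0.73 to -0.40 with the others, also missed that test (-0.30, adjusted p = 0.184), as did SRXN1, at -0.60 to -0.14 (-0.00, 0.998). So did AKR1B10, at -0.70 to -0.26 (-0.13, 0.65), and CYP1A1, at -0.46 to -0.09 (-0.17, 0.31). On the rising side GTF2A1 stood at 0.25 to 0.67 with the other 6 and differed from their mean by 0.24 (0.0981), BCL2L11 at 0.25 to 0.44 and 0.07 (0.722), BTG2 at 0.15 to 0.53 and 0.23 (0.101), and NR6A1 at 0.11 to 0.58 and 0.08 (0.773). All of these share the mock arrays, so a mock array that stood apart would move each siRNA's value in the same direction. FOXQ1 lay between, at -0.62 to -0.33 with the other 6 and lower than their mean with APOB-Hs2 (-0.52, adjusted p = 0.00296), and RPL41, at 0.25 to 0.85 with the other 6, was higher than it (0.45, 0.0274). Of the lipid and cell cycle genes, GPAM (-0.42, 0.000788), ACLY (-0.28, 0.00383), ACSL1 (-0.26, 0.0174), CCNE1 (0.35, 0.00417), E2F3 (0.40, 0.00463) and CDK2 (0.24, 0.0183) also differed from the other siRNAs, and FASN (-0.20, 0.053) did not pass.

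**Figure D4:**
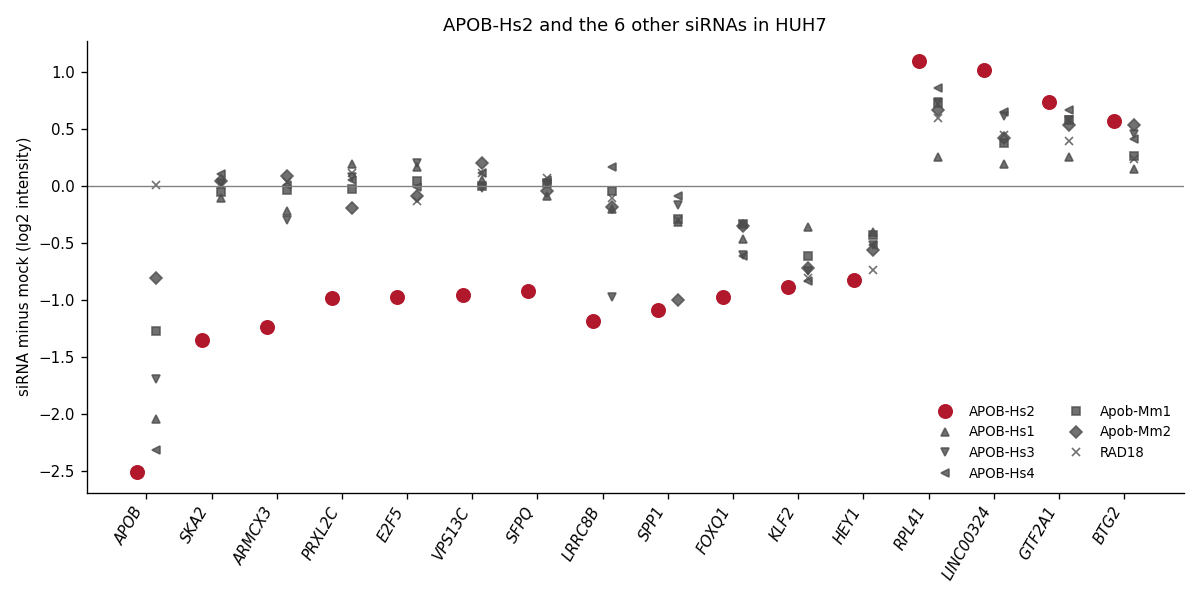
Log2 difference from mock in HUH7 for 16 genes, with APOB-Hs2 as red circles and the 6 other siRNAs as grey symbols. SKA2 to SFPQ are low with APOB-Hs2 and near 0 with the others, LRRC8B and SPP1 are also low with 1 other siRNA, and FOXQ1, KLF2, HEY1 and the 4 rising genes on the right are displaced with all 7.

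The course over time was tested as a slope of the APOB-Hs2 minus mock difference over log2 hours, that is per doubling of time. The slope was negative past the test for 238 genes (1.33%) and positive for 43 (0.241%), 281 in all. That count was 4 without 48 h, 44 without 24 h, 138 without 6 h and 215 without 12 h. It was 46 without the APOB-Hs2 array of 48 h, 47 without mock at 48 h and 40 without mock at 6 h. Leaving out any other single array tried gave 190 to 567. The slopes of the genes named below were not refitted in this way. The steepest were SPP1 (-0.69 per doubling, adjusted p = 4.1e-05), ELK3 (-0.68, 1.43e-05), NEGR1 (-0.63, 0.033), SKA2 (-0.63, 3.26e-05) and PAQR3 (-0.61, 9.8e-05). ELK3, an ETS factor gene, stood at 291, 179, 90.7 and 52.4 intensity units with APOB-Hs2 and 281, 275, 221 and 208 with mock, slightly above mock at 6 h and at 25.2% of it at 48 h. NEGR1, a neural cell adhesion gene, had 243, 172, 135 and 53.8 units with APOB-Hs2 and 207, 161, 182 and 174 with mock. It was above mock at the first 2 times and below it at the last 2, and its difference over the 4 times was not called (-0.45, adjusted p = 0.389). The slope of APOB, whose difference was full by 12 h, missed the threshold (-0.53, adjusted p = 0.111).

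On the positive side the steepest slopes were those of TCN1, a vitamin B12 binding protein gene (0.46, adjusted p = 0.0267), TBX2, a T-box factor gene (0.39, 0.0285), the metallothionein genes MT1M (0.36, 0.0175) and MT1F (0.35, 0.00035), and HES4, of the Hairy and Enhancer of split family (0.34, 0.00168). TCN1 had 20.1, 24.6, 35.4 and 59.2 intensity units with APOB-Hs2 and 27.4, 25.2, 30.9 and 29.1 with mock, so it was below mock at 6 h and above it at 48 h. HES4 was flat with APOB-Hs2, at 689.6, 725, 689 and 713 units, against 721, 658, 461 and 378 with mock, where it declined. MT1M and MT1F belong to a family of near-identical genes that probes may not separate. None of these 5 was called over the 4 times against mock (adjusted p 0.1 to 0.954).

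PLC/PRF/5, a second human hepatoma line, received the same siRNA and had its own mock arrays, at 6, 12 and 48 h, which gave a reading of the HUH7 calls in arrays that did not choose them. There 59 genes were lower (0.331%) and 8 higher (0.0449%). Of the 214 genes that fell in HUH7, 198 (92.5%) had a negative difference in PLC/PRF/5, against 45.1% of all genes, and 51 (23.8%) were called lower there. Those 51 were 86.4% of the 59. Of the 210 that rose in HUH7, 191 (91%) had a positive difference in PLC/PRF/5, against 54.9% of all genes, and 4 (1.9%) were called higher, among them BTG2 (0.81, adjusted p = 0.0431) and NR6A1 (0.82, 0.0358). The median of the 214 in PLC/PRF/5 was -0.18, -0.39 and -0.82 at 6, 12 and 48 h, and that of the 210 was 0.04, 0.22 and 0.36. Over the 3 shared times 130 of the 214 had a lower difference in PLC/PRF/5 than in HUH7, as did 157 of the 210 that rose, against 8757 of all 17836 genes.

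Most of the leading falls were of similar or larger size in the second line, over its 3 times. APOB had 1470.2, 348 and 389.6 intensity units at 6, 12 and 48 h with APOB-Hs2 in PLC/PRF/5 and 5490.3, 4304 and 6392 with mock, a difference of -3.19 (adjusted p = 0.000474). SKA2 had 484, 182 and 81.3 units with APOB-Hs2 and 773, 753 and 804 with mock, with each treated array below all mock arrays, and fell by 2.01 (adjusted p = 0.0073). SFPQ had 469, 248 and 152 units with APOB-Hs2 and 876, 894 and 909 with mock and fell by 1.78 (adjusted p = 0.00019). ARMCX3 (-1.32), PRXL2C (-1.70), E2F5 (-1.41), FAM217B (-1.41), VPS13C (-1.09), PAQR3 (-1.38), ANGEL2 (-1.43), DDX5 (-1.49), MBNL2 (-1.27), NSL1 (-1.44), PRKRA (-1.38) and TNRC6B (-1.07) also fell there. LRRC8B (-1.55, adjusted p = 0.0528), ELK3 (-1.63, 0.0565) and SPP1 (-1.48, 0.375) had large differences that did not pass. SPP1 in PLC/PRF/5 had 2511, 1901 and 171 units with APOB-Hs2 and 2529.7, 2832 and 2449 with mock, and nearly all of its difference came from 48 h.

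Several genes of the HUH7 response gave smaller values in PLC/PRF/5. FOXQ1 stood at -0.61 (adjusted p = 0.194) and KLF2 at -0.26 (0.814), the last with -0.68, -0.78 and 0.67 at 6, 12 and 48 h. HEY1 stood at 0.08 (0.951). FZD6, which rose in HUH7, stood at 0.04 (0.978), DUSP6 at -0.04 and BCL2L11 at -0.09. FOXQ1 and FZD6 were dimmer in this line. FOXQ1 had 41.0 to 48.0 intensity units with mock in PLC/PRF/5, against 433 to 572 in HUH7. FZD6 had 28.1 to 43.1 units with mock there, against 64.8 to 108 in HUH7. Whether dim signal made their differences smaller was not tested. Of the lists, limma called 0 of 22 genes of fatty acid and triglyceride synthesis in PLC/PRF/5 (median -0.025). In that line GPAM stood at -0.37, ACSL1 at -0.31, ACLY at -0.48 and FASN at -0.22. Limma called 0 of 34 of the cell cycle list (median 0.06). As 0.331% of all genes were called lower there and 0.0449% higher, a count of 0 in lists of this size says little. The NRF2 list of 22 had 1 gene lower there and a median of -0.24, further from 0 than in HUH7. RPL41, at 0.89 (0.0653) in PLC/PRF/5, was at 0.18, 0.88 and 1.62 at 6, 12 and 48 h there, against 0.57, 0.89 and 1.44 in HUH7. Tested directly as an interaction over the 3 shared times, however, limma called 0 genes lower and 0 higher in HUH7 relative to PLC/PRF/5 (0%), with 606 at an unadjusted p under 0.05 and a lowest adjusted p of 0.7. A p that misses the threshold does not show that the lines respond alike: for SKA2 the difference of differences was 0.81, for HEY1 -0.91 and for FZD6 0.64. Without the PLC/PRF/5 array of APOB-Hs2 at 6 h that count was 15, and the number of genes lower in PLC/PRF/5 was 223, whereas without the 12 h arrays of that line it was 0.

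**Figure D5:**
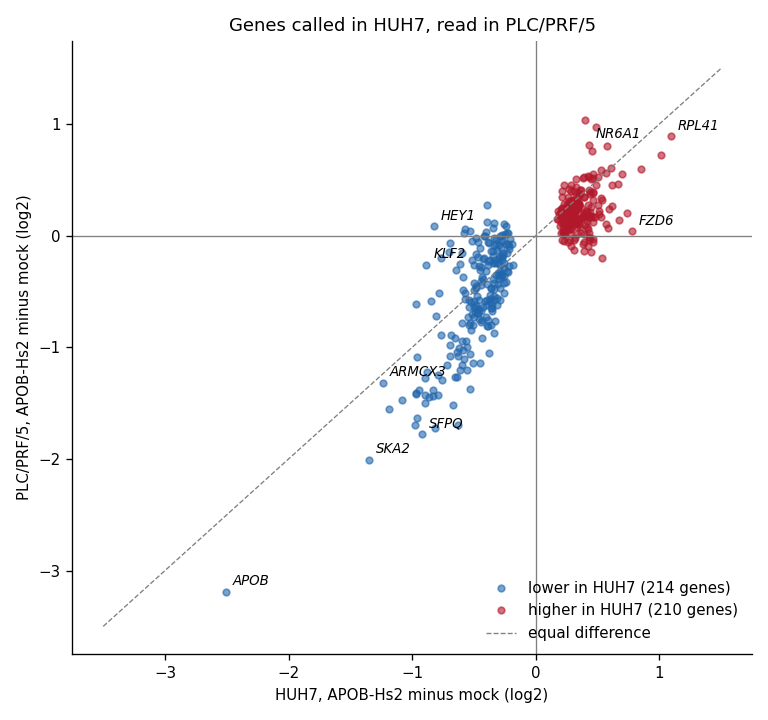
Log2 difference of APOB-Hs2 minus mock in PLC/PRF/5 (vertical) against that in HUH7 (horizontal) for the 214 genes that fell (blue) and the 210 that rose (red) in HUH7, with a dashed line at equal differences. Of the blue points 198 lie below 0 in PLC/PRF/5, and many of the deepest lie under the dashed line, while 191 of the red points lie above 0.

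A further reading came from probe sets that had not represented their gene. The genes that fell in HUH7 had 148 such probe sets, of which 119 were negative (80.4%, against 46% over all such probe sets), and the genes that rose had 118, of which 92 were positive (78%, against 54%). They come from the same RNA and were given no test. A second probe set stood close to the first for NSL1 (-0.86 and -1.02), PRXL2C (-0.98 and -0.89), FAM217B (-0.97 and -0.81) and GPAM (-0.59 and -0.65). It stood apart for ELK3 (-0.96 and -0.44), the stress gene ASNS (-0.48 and -0.09), the splicing factor gene SNRNP70 (0.19 and -0.13) and H3C15 (0.67 and 0.09). Dim probe sets, at 5.3 to 11.3 intensity units in mock, stood apart for PAQR3 (-0.94 and 0.07), ZMAT3 (-0.58 and -0.05), ARMCX3 (-1.24 and 0.03) and VPS13C (-0.96 and -0.065). A further probe set of ARMCX3 stood at -0.88 and of VPS13C at -0.76. BCL2L11, at 0.42, had others at 0.18 and -0.00, and TNRC6B, at -0.48, had others at -0.38 to -0.11. APOB, SKA2, LRRC8B, SPP1, SFPQ, DDX5, E2F5, KLF2 and RPL41 were read by 1 named probe set each. When the 17564 probe sets without a gene symbol were fitted together with the named ones, 35 of them were lower and 49 higher.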

How the data were processed

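RNA was read on single-colour oligonucleotide arrays of human probe sets. Per the submitters' processing notes the deposited intensity values were made with RMA, which corrects background, normalises by quantiles and summarises probes. The version of RMA was not given in the sources used here, nor was a genome build. Intensities were taken to log2, and differences carry no further normalization. Of 43483 probe sets, 25919 had 1 gene symbol and 17564 none. Symbols were updated through RefSeq gene tables, 2106 by an older symbol and 2009 by accession, and the brightest probe set over the 32 HUH7 arrays stood for each of 17836 genes.

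Tables were read with data.table (release 1.17.8). The package limma (release 3.58.1, under R 4.3.3) fitted treatment and time as factors, which left 21 residual degrees of freedom, with two-sided tests and Benjamini-Hochberg adjustment over all 17836 genes. The time slope replaced the time-averaged difference by one over log2 hours, with 14 degrees of freedom. PLC/PRF/5 was fitted alone (24 arrays), and the difference between lines in 48 arrays of the 3 shared times. Precision is set by how many arrays each contrast holds. The fits were tested on simulated data with 200 genes changed. No 2 arrays held identical values.

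Genes named are APOB, the 16 largest falls and 12 largest rises past the test with 1 sign at all 4 times, up to 4 called members of each of 29 lists, the members of small families beside them, and the 5 steepest slopes in each direction. Called list members beyond 4 complete a count and were named after their values were seen. The members and lists were chosen with earlier results of these data known. Alternatives were quantile normalization, the mean of a gene's probe sets, leaving out dim genes, an offset of 16, a trended robust prior, fewer arrays, no time factor, and leaving out times or single arrays.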

Additional observations from a re-analysis of the deposited data

Results flagged for a closer look

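For 3 of 95 genes screened, 1 of the 4 times stood far from the other 3 in the APOB-Hs2 minus mock difference, by Dixon's criterion for 4 values. Chance meets that criterion in about 1 of 20 groups of replicate values. The 4 times are an ordered course, so that rate need not hold for them. APOB was at -1.12 at 6 h and between -3.01 and -2.89 at the later times. SFPQ, the splicing factor gene, was at -0.36 at 6 h and between -1.19 and -1.06 later. AGO4, an Argonaute gene, was at 0.31 at 24 h and between -0.02 and 0.03 at the other times, and was not called. For APOB and SFPQ the time apart was 6 h, the first of the course. The criterion cannot tell an array that stands apart from a difference not yet full, and neither was tested.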

How the results depend on the processing

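The replicate block here is the time factor, since the 4 times stand in for replicates. With no replicate block limma called 50 genes lower and 21 higher against mock, 118 and 30 against the other siRNAs, 66 slopes and 32 genes lower in PLC/PRF/5. With only APOB-Hs2 and mock arrays the counts were 1 and 0 against mock (2491 at an unadjusted p under 0.05), 2 slopes and 0 lower in PLC/PRF/5, and APOB stayed at -2.51 with an adjusted p of 0.109. These fits estimate the spread with fewer arrays or with the time differences in it. With the dimmer 0.5 of the genes left out 322 were higher against mock, 296 higher against the other siRNAs and 490 slopes passed. A trended robust prior gave 453 slopes, and an offset of 16 gave 1 difference between lines. Leaving out times or single arrays in turn gave 16 to 326 genes lower and 6 to 303 higher against mock, 51 to 450 lower and 13 to 308 higher against the other siRNAs, 4 to 567 slopes, 0 to 223 lower in PLC/PRF/5 and 0 to 15 between lines. APOB ranged from -2.97 to -2.34 over these. The cause of these changes was not tested. The falls made up 50.5% of calls, but 72.7% without 24 h, 63.3% without 12 h, 63.3% without the APOB-Hs2 array of 12 h and 70.4% without the time factor. Quantile normalization kept 407 of the 424 calls, and averaging probe sets turned the sign of 3.

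Of 94 named genes other than APOB, 63 were called. All 63 lost the call in the 8-array fit, 7 of them only there, and 8 lost it only there or without the time factor. The 8 that kept it with each time left out in turn were PRXL2C, FOXQ1, VPS13C, SFPQ, DDX5, MBNL2, RPL41 and GTF2A1, and 33 kept it with each single array left out. None of the 63 reversed in the 20 alternatives. The main limits are 1 array per time, and dim signal: 43.3% of genes had a mock intensity under 64.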

Other observations

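PRR11, which neighbours SKA2 in the RefSeq gene table of GRCh38.p14 and is named after its values were seen, differed in the opposite direction from SKA2, at 0.32 (limma, adjusted p = 0.0424). NDC80, which encodes a subunit of the main microtubule-binding complex of the kinetochore, was called lower in PLC/PRF/5 and stood at -0.18 in HUH7 (adjusted p = 0.227).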
